A study of Macaca mulatta with 16 samples.

Results

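Pseudogenes are gene copies or gene remnants that an annotation does not count as coding for a protein. Most arise when the mRNA of an active gene is copied back into the genome, which leaves a copy without introns, or when a duplicated gene decays. A sequencing read from such a copy can often be placed equally well on its parent gene, so the level given to a pseudogene depends on how reads were shared among similar places. An annotation may also place a pseudogene where another annotation has a working gene, or inside an intron of one, and its reads can then come from the transcript of that gene.

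The 154 expressed pseudogenes described here were the rows of the gene table whose biotype names a pseudogene and whose CPM (the count as parts per 1e6 of its column total) averaged at least 1 over 16 libraries. The table held 19425 genes, of which 340 had a pseudogene biotype, and the other 186 averaged under 1 CPM. Of the members, 141 had the biotype pseudogene and 13 the biotype processed_pseudogene. The members were thus chosen by their mean level, and the levels below are a description. Just above the limit stood ENSMMUG00000049838 at 1.03 CPM, ENSMMUG00000060567 at 1.04 CPM and ENSMMUG00000062833 at 1.07 CPM, and just below it ENSMMUG00000059771 at 0.982 CPM, ENSMMUG00000062339 at 0.993 CPM and ENSMMUG00000043588 at 0.994 CPM.

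The libraries were made from formalin-fixed, paraffin-embedded (FFPE) cardiac tissue of 8 rhesus macaques, the study's animals for right ventricular pressure overload, as total RNA depleted of ribosomal RNA. RNA of each animal was extracted by both methods, with 8 libraries per method. Method QE is the Qiagen AllPrep DNA/RNA FFPE kit with added ethanol washes after the paraffin was removed, and Method BL is the CELLDATA RNAstorm kit with a changed lysis step. The labels give no age, sex, disease state or heart region for any animal, and each animal gave 1 library per method, so a difference among animals cannot be told apart from a difference among blocks or tissue sites.

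In units of 1e6, total counts were 15 to 25.8 in the Method BL libraries and 19.3 to 25.7 in the Method QE libraries. Between 152 and 154 of the members had a count in each library. Genes of the mitochondrial genome took 20.5% to 39.3% of counts under Method BL and 27.4% to 44.4% under Method QE. Of the 10 cardiomyocyte markers, 7 were tested (the others have no row used here), and their summed level was 11360 to 29610 CPM under Method BL and 20640 to 31100 CPM under Method QE.

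The members together took 0.313% ± 0.0189 (SD, n = 8) of counts under Method BL and 0.271% ± 0.0248 (SD, n = 8) under Method QE, and the share was lower under Method QE in 6 of 8 animals. Of the counts outside the mitochondrial genome they took 0.439% ± 0.0211 (SD, n = 8) and 0.423% ± 0.0152 (SD, n = 8). The mean difference between the methods was then 0.0160 percentage points, against a spread of 0.0273 (SD over 8 animals). In TMM-scaled CPM, the members tested below summed to 2390 to 3511 CPM under Method BL and 2703 to 3073 CPM under Method QE. The log2 difference of these sums per animal ran from −0.38 to 0.23, so its sign was not common to the animals. No test was made of these shares and sums.

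When the members were laid over the RefSeq annotation of the same genome build (Mmul_10), they fell into groups of different kinds. A protein coding gene stood at the same place as 42 members, with at least 50% of its coding bases inside the member. RefSeq also had a pseudogene at the place of 21 members. Another 65 members lay inside a coding gene on its strand, 57 mostly in its introns and 8 mostly in its exons. The last groups were 15 members with no RefSeq gene, 9 that faced a gene on the opposite strand only and 2 inside a long noncoding RNA. The 42 members at coding genes held 55.3% of the summed CPM of all members, the 21 RefSeq pseudogenes 19.4% and the 57 intron members 11.8%.

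Some of the most abundant members were genes of heart muscle. XIRP1 (chr2:94648316-94653850, minus strand), which encodes an actin-binding protein of the intercalated disc, averaged 219 CPM. Its values ran from 101 to 302 CPM (median 216) under Method BL and from 156 to 315 CPM (median 234) under Method QE, scaled by TMM like all values per library. The groups overlapped, and the log2 difference of 0.24 (SE 0.12) did not pass the test. SLC4A3, for the chloride and bicarbonate exchanger AE3, averaged 48.5 CPM, and its copy ENSMMUG00000059747 on an unplaced scaffold 48.3 CPM. Neither row had a whole value in any library. In their best aligned stretch, of 255 bases, the scaffold copy and the SLC4A3 coding sequence were identical. The level of each row may therefore rest in part on reads shared with the other, which was not tested.

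Other genes were also among the 15 highest. ENSMMUG00000062968 lay at RHOB, a small GTPase gene, with 136 to 249 CPM (median 193) under Method BL and 194 to 326 CPM (median 209) under Method QE. ENSMMUG00000053673 lay at EID1, which encodes an inhibitor of differentiation that binds EP300, with medians of 184 and 223 CPM. Both were higher under Method QE in 7 of 8 animals, by 0.22 (SE 0.08) and 0.24 (SE 0.07) on the log2 scale, and neither passed the test (adjusted p = 0.175 and 0.101, edgeR). ENSMMUG00000031416, at the basement membrane gene LAMA5, was lower under Method QE in 8 of 8 animals, by a log2 difference of −0.22 (SE 0.08), and did not pass either (adjusted p = 0.183). ENSMMUG00000059080 averaged 97.1 CPM and lay wholly in exon sequence outside the coding part of AFF4, a scaffold of the super elongation complex.

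RefSeq gave an official symbol to 34 of these 42 coding genes and a provisional one to 8. No other row of the table carried one of these symbols, but rows named by an identifier only could not be searched this way. The table named 16 of them by a symbol and 26 by an identifier only. In 36 of the 42 the RefSeq coding sequence was open in the genome, with no internal stop and a length in whole codons. Which condition failed in the other 6, SEPHS2 among them, was not recorded, so these are not taken as broken genes. In 17 RefSeq had placed a gap of under 20 bases between coding parts, as it does to skip a frame break in an assembly, and 23 had an open sequence and no such gap. The rows at EID1 and LAMA5 spanned 1683 and 58269 bases of the genome, so CPM, which is not per length, does not rank the genes.

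**Figure D1:**
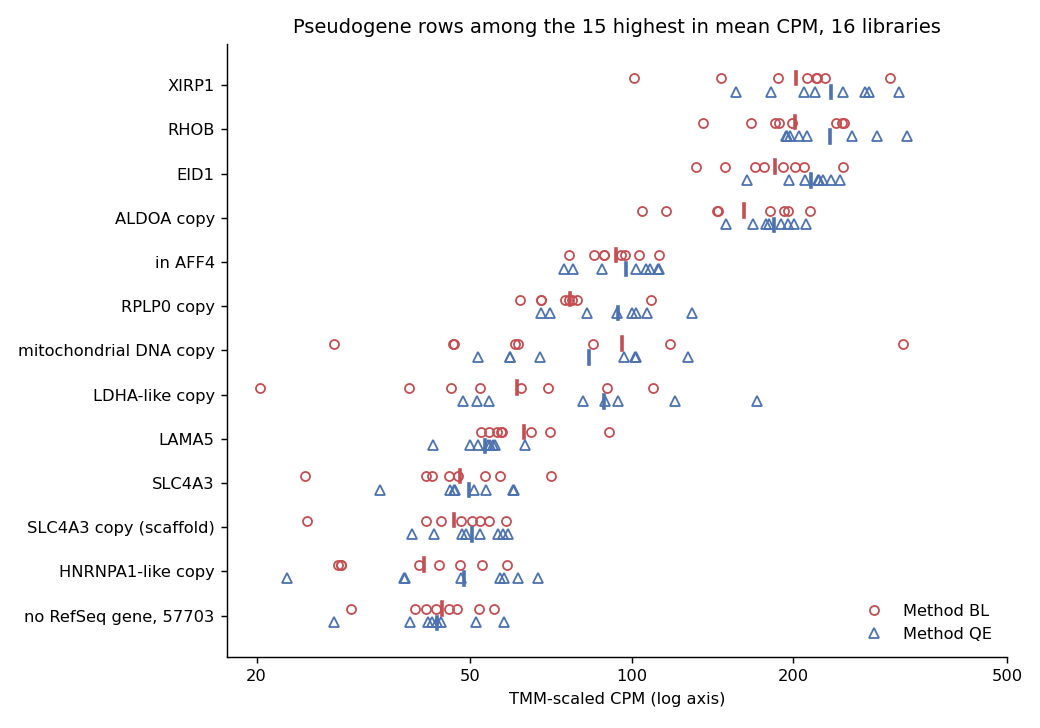
TMM-scaled CPM on a log axis for 13 of the 15 members with the highest mean, with a circle for each Method BL library, a triangle for each Method QE library (8 each) and a short bar for each mean. The rows at XIRP1, RHOB and EID1 stand highest of those drawn, and the libraries of the methods overlap in each of the 13.

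The 21 members that RefSeq also holds as pseudogenes mostly matched proteins of well-known expressed genes. Their best protein matches were 71.98% to 100% identical (median 96.8%), and included the glycolytic enzyme gene ALDOA, the ribosomal protein genes RPLP0, RPL6, RPL24, RPL26, RPL29 and RPL23A, the translation factor genes EIF4B and EIF4A3 and the chaperone gene HSPA8. None of the 21 had only whole-number counts and 16 had no whole value in any library (within 1e-06). The authors' estimation can share reads among places, but for these rows the sharing was not measured. Among all genes 76.7% of values were whole, and among the members 66.9%. The level of a copy may therefore rest in part on such sharing, and its unique reads were not measured.

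The sequences show how little separates some copies from their parents. Others were further off, with 71.89% identical bases for the row matched to LDHA and 91.27% for the HSPA8 copy. Sequences are printed for the 2 copies that differed between the methods and for the most abundant copy, ALDOA's. Each covers the window of 120 alignment columns with the most differences. Coding sequence of the parent is used, from RefSeq on Mmul_10, and capitals mark bases that differ or are missing in the other sequence. The copy ENSMMUG00000007536 (chr11:83742277-83742746, plus strand) matched RPL24 over 471 aligned columns with 0 mismatches and 4 missing bases. The window lies at chr11:83742405-83742520.
ENSMMUG00000007536: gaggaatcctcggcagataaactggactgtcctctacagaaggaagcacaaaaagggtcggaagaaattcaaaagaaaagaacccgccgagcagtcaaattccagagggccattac
RPL24: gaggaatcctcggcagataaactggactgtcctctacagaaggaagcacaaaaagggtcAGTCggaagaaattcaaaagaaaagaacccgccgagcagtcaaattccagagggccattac
The copy ENSMMUG00000012537 (chr19:34080496-34080928, minus strand) matched RPL26 over 435 columns with 3 mismatches and 5 missing bases, of which the window at chr19:34080814-34080928 holds 2 and 5.
ENSMMUG00000012537: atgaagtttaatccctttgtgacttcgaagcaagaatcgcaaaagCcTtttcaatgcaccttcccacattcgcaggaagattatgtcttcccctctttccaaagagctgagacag
RPL26: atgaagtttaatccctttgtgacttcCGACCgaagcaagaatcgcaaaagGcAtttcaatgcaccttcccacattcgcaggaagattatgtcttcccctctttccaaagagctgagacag
The copy ENSMMUG00000032418 (chrX:70614250-70615345, minus strand) matched ALDOA over 1093 columns with 8 mismatches and 1 added base, and the window lies at chrX:70615186-70615305.
ENSMMUG00000032418: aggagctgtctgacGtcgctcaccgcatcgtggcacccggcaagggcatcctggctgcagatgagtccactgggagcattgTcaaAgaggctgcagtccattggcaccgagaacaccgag
ALDOA: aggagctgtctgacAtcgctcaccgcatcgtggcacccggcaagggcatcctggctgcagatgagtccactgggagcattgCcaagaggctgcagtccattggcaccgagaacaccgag

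The ALDOA copy ran from 105 to 215 CPM (median 163) under Method BL and from 150 to 212 CPM (median 185) under Method QE. The row of ALDOA itself averaged 345 CPM in the same table. The log2 difference between methods was 0.22 (SE 0.11) for the copy and 0.18 for ALDOA, and neither passed. The RPLP0 copy ENSMMUG00000044103 averaged 87.0 CPM and the RPL6 copy ENSMMUG00000030465 38.7 CPM, and their parents were not analysed here. ENSMMUG00000047361 averaged 72.1 CPM and matched LDHA, a lactate dehydrogenase gene, at only 71.98% of amino acids over 50.4% of the protein. ENSMMUG00000063288, a copy like HNRNPA1 by its RefSeq description, averaged 46.0 CPM. The HSPA8 copy ENSMMUG00000021266, the only RefSeq pseudogene here with a heat shock protein gene as parent, averaged 1.29 CPM beside 521 CPM of HSPA8. The NDUFB11-like ENSMMUG00000044583, which RefSeq counts as coding, averaged 3.24 CPM beside 16.4 CPM of NDUFB11. The EIF4B copy ENSMMUG00000042124 averaged 15.7 CPM.

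Another kind of copy came from mitochondrial DNA. ENSMMUG00000049833 (chr9:49462416-49464059) is 95.3% identical to 1654 bases of the mitochondrial genome that hold ND4L and most of ND4, the genes of complex I subunits, and the row lies on the opposite strand to them. The copy is printed in the orientation of ND4, from the window with the most differences (8 mismatches and 4 missing bases), at chr9:49462512-49462627.
ENSMMUG00000049833: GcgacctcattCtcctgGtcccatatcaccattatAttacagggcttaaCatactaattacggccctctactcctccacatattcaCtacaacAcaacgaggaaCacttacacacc
ND4: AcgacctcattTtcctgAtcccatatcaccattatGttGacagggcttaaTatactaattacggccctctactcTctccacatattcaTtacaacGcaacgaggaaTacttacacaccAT
All its counts were whole. It ran from 27.8 to 321 CPM (median 61.1) under Method BL and from 51.6 to 127 CPM (median 82.1) under Method QE. The highest value was in the Method BL library of animal r15045, which also had the highest mitochondrial share of that method. ND4 itself ran from 23530 to 63840 CPM under Method BL and from 28500 to 84960 CPM under Method QE. ENSMMUG00000053137 (chr8:49545791-49546692, 16.5 CPM) was identical over 902 bases to the mitochondrial large ribosomal RNA on the other strand, and ENSMMUG00000051300 (12.3 CPM) to 1632 bases of a cytosolic 18S ribosomal RNA gene on the other strand. Whether these rows hold reads of the abundant RNA was not tested.

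The comparison of the extraction methods asked which members differed between libraries of the same animals. The edgeR quasi-likelihood F test with the animal as a block was run over 14165 genes, 152 of the members among them, and the other 2, both antisense members, fell under the filter on low counts. At an adjusted p under 0.05, 303 genes were called (2.14%), 121 higher under Method QE (0.854%) and 182 lower (1.28%). Of the members 13 were called (8.55%), 2 higher and 11 lower. The median log2 difference of Method QE minus Method BL was −0.18 over the members and 0.00 over all genes tested.

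The groups of members moved apart. Of the 57 intron members 56 were below 0, with a median of −0.42 and 10 called lower, and none was called higher. Of the 21 RefSeq pseudogenes 17 were above 0, with a median of 0.23 and 2 called higher. By animal their median ran from −0.01 in r15045 to 0.36 in 2740. From 3 of 21 (rh2957) to 11 of 21 (r15045) were lower under Method QE. The 42 members at coding genes were split 21 to 21 around a median of 0.00, with 0 called by edgeR. At an unadjusted p under 0.05 there were 10 of them, and 3 passed with DESeq2 and 1 with limma-voom. The 8 members mostly in exons had a median of −0.21 and the 15 with no RefSeq gene a median of −0.23. Over all genes tested 49.3% were below 0, and over the 520 tested genes with the biotype lncRNA 75.2% were, with a median of −0.22. Genes tested at the levels of the intron members, 1 to 30 CPM, had a median of −0.02. These counts describe the groups, which were formed after the values were known.

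**Figure D2:**
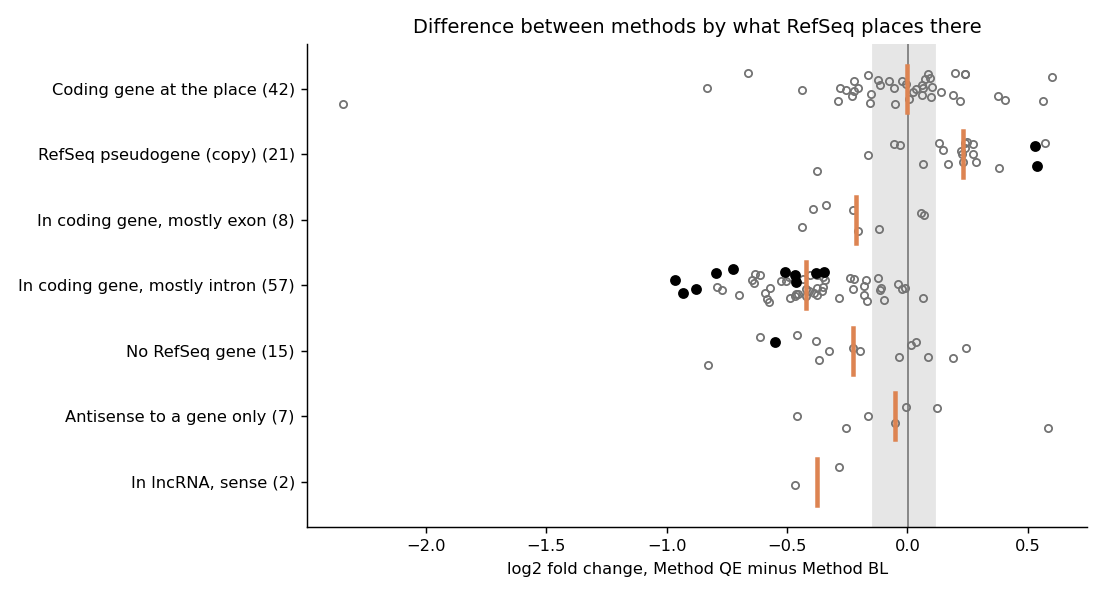
Log2 difference (Method QE minus Method BL) of each of the 152 members tested, by what RefSeq places there, with black points for the 13 called members, an orange bar at each group's median, and grey shading and line for the quartiles and median of all 14165 genes tested. Of the 57 intron members 56 lie left of 0, and of the 21 RefSeq pseudogenes 17 lie right of it.

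The intron members were low, and most had whole counts. None exceeded 29.9 CPM (median 3.07), and 44 of the 57 had whole values only. In 44 of the 57 no base lay in a RefSeq exon of the host gene. They were 797 to 8129 bases long, in 54 host genes. In each of the 8 animals most of them were lower under Method QE, from 38 of 57 in animal r15089 to 49 of 57 in animal rh2957. Their summed level was 339 to 404 CPM under Method BL and 274 to 326 CPM under Method QE, and these ranges did not overlap. The sum was lower under Method QE in 8 of 8 animals, by 0.18 to 0.42 on the log2 scale. No p is given for a sum over members.

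The host genes did not move in the same way. A row of the host was tested for 53 intron members, from 50 genes, and none of these 50 was called in either direction, while 25 were below 0 and their median log2 difference was 0.00. The member lay below its host in 52 of 53, by a median of 0.39 on the log2 scale. A host row covers annotated exons. For the 44 of 57 intron members with no base in a RefSeq exon of the host, member and host values come from different parts of 1 gene. The others lay partly in host exons, as ENSMMUG00000059408 in ARHGEF7 did with 29.92% of its bases.

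**Figure D3:**
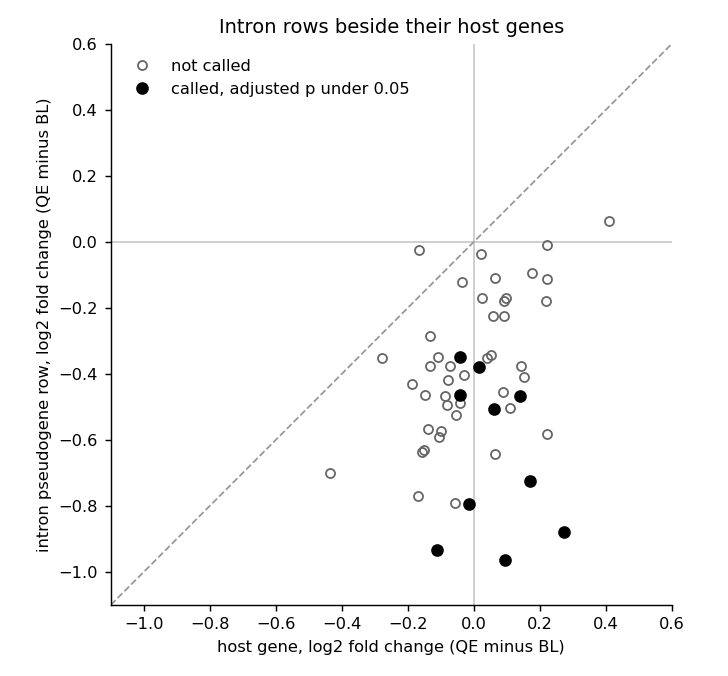
Log2 difference (Method QE minus Method BL) of each of 53 intron members against that of the gene it lies in, with black points for called members and a dashed line where both would be equal. 52 of the 53 points lie below the line, and the hosts spread around 0.

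ENSMMUG00000058677 (chr17:94464836-94470595) lies in CUL4A, a scaffold of ubiquitin ligases, and ran from 14.2 to 20.8 CPM (median 17.6) under Method BL and from 10.2 to 14.97 CPM (median 12.7) under Method QE. It was lower in 8 of 8 animals, with a log2 difference of −0.51 (SE 0.08, adjusted p = 0.0121, edgeR), and the ranges overlapped only at their ends. CUL4A itself differed by 0.06 (adjusted p = 0.733). Of 3 members in ANKRD11, a chromatin regulator gene, 2 were called. ENSMMUG00000064184 had medians of 26.2 and 19.2 CPM and differed by −0.46 (SE 0.09, adjusted p = 0.0202), and ENSMMUG00000054251 had medians of 29.7 and 24.2 CPM and differed by −0.35 (SE 0.07, adjusted p = 0.0225). ANKRD11 differed by −0.04 (adjusted p = 0.777). ENSMMUG00000054251 had no whole value in any library, and 43.75% of the values of ENSMMUG00000064184 were whole. Whether their reads were shared with other places was not tested.

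ENSMMUG00000063671 in JAZF1, a zinc finger gene, had medians of 12.3 and 10.2 CPM and was lower under Method QE in 8 of 8 animals (log2 difference −0.47, SE 0.09, adjusted p = 0.0225). ENSMMUG00000051714 in BABAM2, of the BRISC and BRCA1-A complexes, ran from 9.22 to 13.4 CPM under Method BL and from 6.35 to 10.7 CPM under Method QE (−0.38, adjusted p = 0.0324). The larger differences were in members with fewer reads. ENSMMUG00000061157 in MTMR2, a phosphoinositide phosphatase gene, ran from 1.12 to 2.89 CPM under Method BL and from 0.845 to 1.10 CPM under Method QE, with no overlap, and differed by −0.96 (SE 0.20, adjusted p = 0.0302). ENSMMUG00000064327 in EEF1AKMT2, a lysine methyltransferase gene for an elongation factor, differed by −0.93 (SE 0.17, adjusted p = 0.0191), and ENSMMUG00000063195 in ZNF592 by −0.79 (SE 0.15, adjusted p = 0.0219). ENSMMUG00000053652 in CAPZB, of the actin capping protein, differed by −0.72 (adjusted p = 0.0405). The member called lower outside introns, ENSMMUG00000052348 (chr5:51376002-51378819), has no RefSeq gene and went from a median of 7.26 to 4.84 CPM (−0.55, SE 0.12, adjusted p = 0.0307).

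Both members called higher were copies of genes for proteins of the large ribosomal subunit. The RPL24 copy shown above ran from 12.7 to 18.3 CPM (median 17.4) under Method BL and from 21.3 to 30.5 CPM (median 23.8) under Method QE, and the ranges did not overlap. It was higher in 8 of 8 animals, with a log2 difference of 0.54 (SE 0.07, adjusted p = 0.00625, edgeR). The row of RPL24 averaged 9.37 CPM, less than its copy at 20.5 CPM, and differed by 0.16 (adjusted p = 0.442). The RPL26 copy ran from 23.2 to 42.5 CPM (median 29.7) and from 34.3 to 48.1 CPM (median 42.9), and was higher in 8 of 8 animals by 0.53 (SE 0.08, adjusted p = 0.00908). RPL26 itself was not analysed here. Both copies had no whole value in any library, so a change in how reads were divided between copy and parent was not told apart from a change in RNA.

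The other 4 ribosomal protein copies were also above 0, at 0.27 for RPL6 (adjusted p = 0.0893), 0.27 for RPL29 (adjusted p = 0.161), 0.28 for RPLP0 (adjusted p = 0.126) and 0.15 for RPL23A (adjusted p = 0.926), and none passed. The row of the parent was tested for 13 of the 21 copies. The median log2 difference was 0.17 over these 13 copies and 0.13 over their parents, of which 12 were above 0 and none was called. Copy and parent had the same sign in 10 of the 13, and since they may share reads these are not taken as separate measurements.

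**Figure D4:**
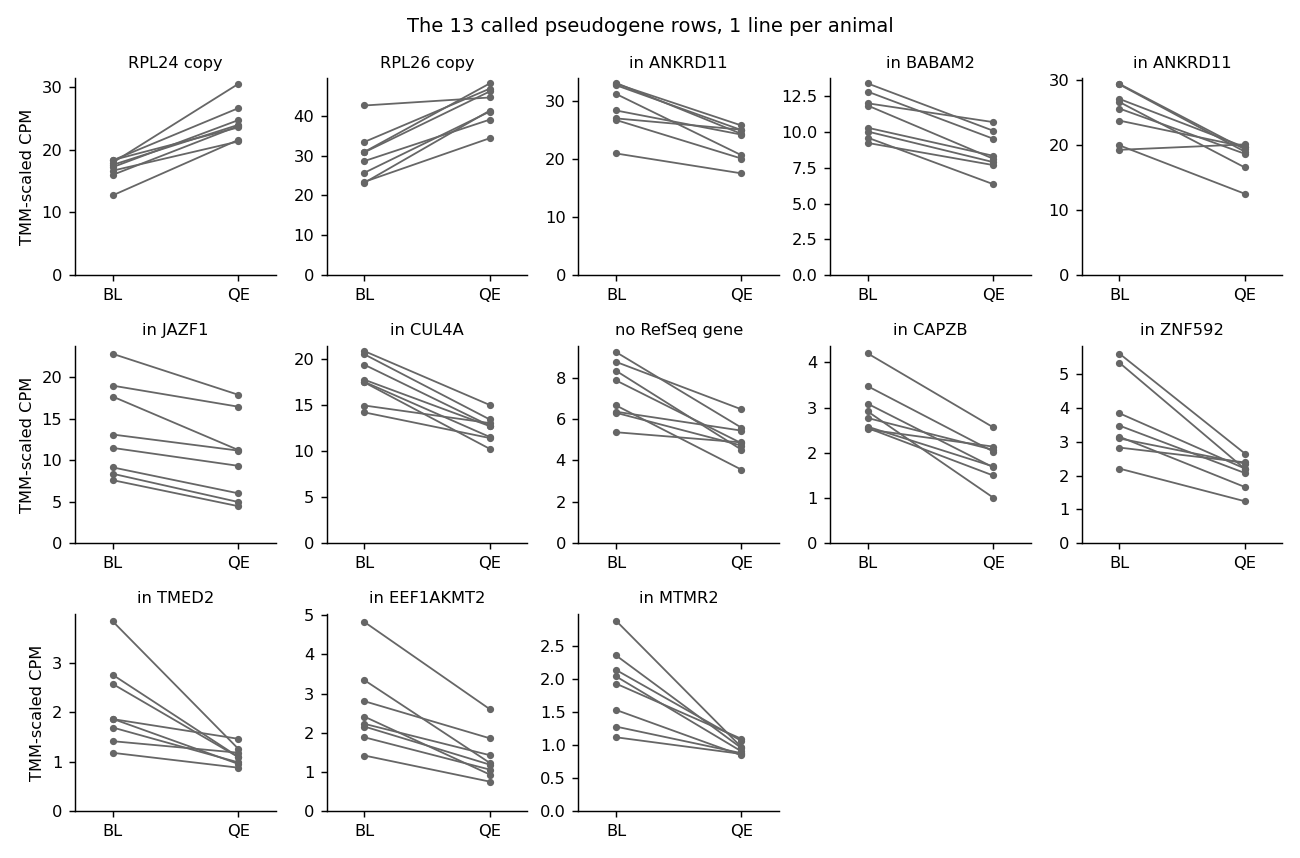
TMM-scaled CPM of the 13 called members under Method BL and Method QE, 1 line per animal, on linear axes from 0. The copies of RPL24 and RPL26 rise in each of the 8 animals, and the other 11 rows fall in at least 7 of 8.

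The number of member calls moved with the animals in the fit, and the calls over all genes in these fits are not given here. Without 1 animal 3 to 13 members were called, 3 without animals r15089, 16010 or 2740, 5 without 16116, 8 without 12075 or I30, and without the animal as a block 1 was called. The CUL4A member and the copies of RPL24 and RPL26 were called in each of the 8 fits that left out an animal. The CAPZB member (adjusted p = 0.0581 to 0.1, edgeR) and ENSMMUG00000059674 in TMED2, the eleventh member called lower and named after its values were seen, were called in none of the 8. The MTMR2 member was called in 1 of 8, ENSMMUG00000052348 and the BABAM2 member in 2, the ZNF592 member and ENSMMUG00000054251 in 3, the JAZF1 member in 4, and the EEF1AKMT2 member and ENSMMUG00000064184 in 5.

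A member that did not pass had the largest difference in size. MUC16, a mucin gene of the mesothelium, stands at ENSMMUG00000064532, which was chosen for the text after its values were seen. It ran from 12.7 to 66.4 CPM (median 50.4) under Method BL and from 0.0788 to 99.5 CPM (median 8.95) under Method QE, lower in 6 of 8 animals, with a log2 difference of −2.35 (adjusted p = 0.146). The mesothelial markers that could be tested, 3 of 4 (MSLN, UPK3B and WT1), summed to 3.03 to 17.1 CPM under Method BL and 0.383 to 21.5 CPM under Method QE. Their highest sum and the highest MUC16 value were in the same library, that of animal 12075 under Method QE. In each animal the marker sum and MUC16 moved the same way from Method BL to Method QE, up in 12075 and I30 and down in the others. The part of these markers in the difference was not tested. In such bulk libraries, fewer cells of a type and less RNA per cell cannot be told apart.

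At the other coding genes the differences lay between −0.83 and 0.60. EPPK1, which encodes a plakin (ENSMMUG00000063093), was at −0.83 (adjusted p = 0.201) and WDR90 (ENSMMUG00000013169), a centriole and cilium gene, at −0.66 (adjusted p = 0.0524). At the other end stood FAM81B at 0.60 (adjusted p = 0.363) and PRODH (ENSMMUG00000050993), the proline dehydrogenase gene, at 0.56 (adjusted p = 0.141). These 4 rows averaged 1.17 to 2.68 CPM and were named after their values were seen.

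Members also differed from animal to animal. With the 2 libraries of an animal as its replicates, 4461 of the 14165 genes (31.5%) were called by the F test of animals, and 37 of the 152 members (24.3%). Of these 13 stood at coding genes, 10 in introns, 5 at no RefSeq gene, 3 were RefSeq pseudogenes, 3 antisense members, 2 mostly in exons and 1 inside a long noncoding RNA. The animal was not tied to any treatment in the labels.

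The smallest adjusted p values were those of ENSMMUG00000030326 and the JAZF1 member ENSMMUG00000063671, both at 6.2e-05. ENSMMUG00000030326 (chr16:8044877-8045278) lies at a RefSeq gene for interferon-induced transmembrane protein 3, a factor that restricts virus entry. Animal rh2957 had 15.1 CPM under Method BL and 15.5 CPM under Method QE, while the next highest animal, r15089, had 7.64 and 7.72 CPM and the lowest, I30, 3.62 and 3.43 CPM. Over the 8 animals the methods differed by 0.01 on the log2 scale (SE 0.10), with 4 animals higher under each. No value of this row was whole, and whether its reads were shared with other rows was not tested. The JAZF1 member, lower under Method QE in each animal, was highest in animal 16010, at 22.8 CPM under Method BL and 17.9 CPM under Method QE, and lowest in animal 16116, at 7.58 and 4.45 CPM.

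ENSMMUG00000064432 (chr6:146902303-146906762), where RefSeq has no gene, had 0.0818 and 0.113 CPM in animal rh2957 and 4.605 and 5.07 CPM in animal I30. Its range over animals was 4.68 on the log2 scale (adjusted p = 2.96e-04, F test of animals). Ranges here use log2 CPM with a prior count added, which narrows them where counts are low, as in rh2957. ENSMMUG00000063330, antisense to the sialyltransferase gene ST8SIA5, ranged over 2.87 on that scale (adjusted p = 6.35e-04), with animal r15045 highest and rh2957 lowest. ENSMMUG00000054160, on an unplaced scaffold, ranged over 1.72 (adjusted p = 0.00125), and ENSMMUG00000057703 (chr5:7155696-7161257), among the 15 most abundant at 43.9 CPM, ranged over 0.92 (adjusted p = 0.00167). Animal rh2957 was the lowest in 3 of these 6 members and the highest in 1.

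**Figure D5:**
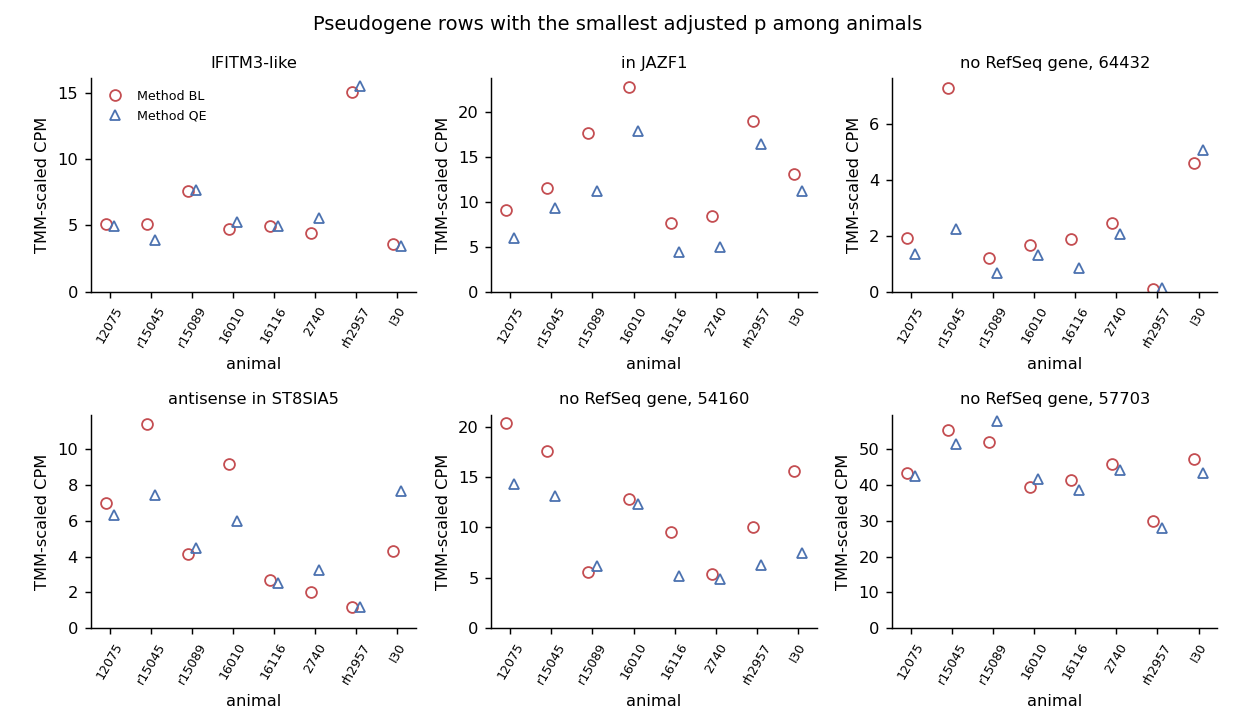
TMM-scaled CPM of the 6 members with the smallest adjusted p in the test among animals, with a circle for Method BL and a triangle for Method QE in each of 8 animals, on linear axes from 0. The 2 libraries of an animal lie near each other in the IFITM3-like row, where animal rh2957 stands highest.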

How the data were processed

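Total RNA of rhesus macaque FFPE cardiac tissue was sequenced in 16 libraries, 8 per extraction method. Per the labels and the study's methods, the authors aligned reads with STAR 2.7.8a to Mmul_10, and quantified Ensembl genes by expectation and maximization in Partek; the deposited values are estimated counts, which need not be whole, and whether strand was used is not given in the sources used here. For all samples the extraction protocol label names the Method QE kit, and groups were taken from the titles. Libraries were paired by the animal in their names; the replicate numbers follow another order. Over all genes, the same animal's libraries deviated together (r = 0.345 to 0.637), and each Method BL library correlated best with its own animal in 8 of 8. Over the members alone r ran from -0.0569 in animal r15045 to 0.569 in animal 16116.

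Estimated counts were rounded to whole numbers and tested with edgeR 4.0.16 (filterByExpr, TMM, animal as block, Benjamini-Hochberg over 14165 genes, threshold 0.05). On simulated counts for the 14165 genes of the method comparison, 76% of genes changed by 0.75 (log2) and 93% of those changed by 1.5 were called. For simulated animal effects with an SD of 0.75 (log2) 82% were. Smaller method differences, such as the median of −0.42 of the intron members, were not simulated. DESeq2 1.42.0 and limma 3.58.1 were alternatives, with other scalings, filters, membership limits and left-out animals. Classes came from the RefSeq annotation of Mmul_10, after the values were seen. Parents came from blastx 2.17.0 against RefSeq coding sequences translated from the genome, in place of a protein file. The members and lists were chosen with earlier results of these data known. Named members were the 15 with the highest mean (2 of them are not reported here), those called between methods (10 per direction) and among animals (6), the neighbours of the limit, and the most abundant of each parent class. P-values between methods measure the spread of the differences within these animals, and those among animals the spread between the 2 libraries of an animal. Each animal gave 1 library per method, and the labels do not give whether both came from the same tissue block.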

Additional observations from a re-analysis of the deposited data

Results flagged for a closer look

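Among the 68 sets of 8 libraries (a named member within a method), 6 held a library whose gap to its nearest neighbour, on the log2 scale, was past Dixon's 95% critical value, and chance marks about 1 in 20 such sets. Under Method BL, animal rh2957 held 3 of these. The RPLP0 copy ENSMMUG00000044103 stood at 109 CPM there, against 61.9 to 79.1 CPM in the other libraries. The scaffold copy of SLC4A3, ENSMMUG00000059747, stood at 24.8 CPM against 41.4 to 58.2 CPM. ENSMMUG00000064432 stood at 0.0818 CPM against 1.21 to 7.27 CPM. The RPL24 copy ENSMMUG00000007536 stood at 12.7 CPM in animal r15045 under Method BL, against 15.99 to 18.3 CPM. The ANKRD11 members were low in animal 2740, ENSMMUG00000064184 at 12.5 CPM under Method QE against 16.6 to 20.1 CPM, and ENSMMUG00000054251 at 20.9 CPM under Method BL against 26.7 to 33.0 CPM.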

How the results depend on the processing

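The 13 members called between methods became 12 with median of ratios scaling, 17 with upper quartile scaling, 11 with no filter, 15 with limma-voom and 21 with DESeq2 (3 higher and 18 lower). With no animal as replicate block, 1 was called. With only the animals whose Method BL name ends in B, 3 were called, and with only those ending in R, 0 were called by edgeR, where 25 had an unadjusted p under 0.05. Leaving out 1 animal gave 3 to 13. The 37 members called among animals became 23 with limma-voom and 47 with DESeq2, and 20 to 45 without 1 animal; the lowest, 20, was without animal 16010, and 23 were called without animal rh2957. The median of the intron members stayed between -0.455 and -0.393 in the 18 other fits, chosen after seeing the data, and that of the RefSeq pseudogenes was 0.12 with only the animals ending in R. The difference of the members' share of counts stayed below 0 in each alternative. The members' sum in TMM-scaled CPM had no common sign over the animals, with log2 differences from -0.38 to 0.23. The cause of these changes was not tested. The share called over all genes is given only for the first edgeR fit, 2.14% between methods and 31.5% among animals. In the other fits, a change in the members was therefore not told apart from a change over all genes.

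The values that changed sign all belonged to members not called between methods. ENSMMUG00000059080 lay between -0.00394 and 0.0989 when 1 animal was left out, and at -0.0656 with only animals ending in B. ENSMMUG00000049833 was at -0.203 with no block and -0.112 with only animals ending in R. SLC4A3 lay between -0.0220 and 0.193 when 1 animal was left out. ENSMMUG00000030326 was at -0.0166 with upper quartile scaling, -0.0947 with only animals ending in R, and between -0.0366 and 0.0608 when 1 animal was left out. ENSMMUG00000063330 was at 0.00766 with no filter, 0.106 with only animals ending in B, 0.00313 with DESeq2, and between -0.137 and 0.104 when 1 animal was left out. ENSMMUG00000042124 was at -0.00971 with only animals ending in R.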
